A study of Homo sapiens with 18 samples.

Results

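The replication-dependent histone genes are described here in spheroidal aggregates of 2 human brain tumor cell lines. They were taken by name from the deposited table: each gene whose symbol begins with HIST1H, HIST2H, HIST3H or HIST4H and that has a transcript typed protein coding, with the estimated counts of those transcripts summed by name. This gave 63 genes (73 transcripts) of 32490 gene names. U87 mg is a glioblastoma line and DAOY a desmoplastic cerebellar medulloblastoma line. Aggregates of either line were embedded in Matrigel in an electrotaxis channel and were either left without a field (0 h, the controls) or held in a continuous direct current electrical field (dcEF) of 250 V/m for 2 h or 8 h. RNA from 3 pooled channels made a sample, and each of the 6 combinations of line and time has n = 3 samples, so the 18 libraries hold 9 of each line. The 0 h samples are also the only reference for time in culture, so the field and the hours spent in it cannot be told apart.

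Replication-dependent histone genes encode the H1, H2A, H2B, H3 and H4 proteins that package newly made DNA, and their mRNAs accumulate in S phase. Most of these mRNAs are unusual in that they carry no poly-A tail: they end just after a short hairpin, the histone stem-loop, which is bound by the stem-loop binding protein (SLBP). Some of the genes also make longer, polyadenylated transcripts, for instance in cells that have stopped dividing. The libraries here were made by poly-A pull-down, so the values below describe what such libraries retain and not the total amount of histone mRNA in the cells. In bulk samples, fewer cells that express a gene and less of its RNA per cell cannot be told apart.

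By family, the 63 genes comprise 5 for H1, the linker histone, 16 for H2A, 17 for H2B, 13 for H3 and 12 for H4, the 4 core histones. In GENCODE 29 (GRCh38), 48 lie in the HIST1 cluster at chr6:26021679-27893843, 12 carry HIST2 names on chromosome 1 between 143905556 and 149887916, 2 carry HIST3 names at chr1:228456979-228460470 and 1, HIST4H4, is at chr12:14767999-14771131. Their annotated 3′ ends differ, and 72 of the 73 transcripts could be matched to a sequence. The stem-loop was searched for on the transcript strand as 16 bases with a stem of 6 pairs (G with T allowed) and a loop of 4 bases. The search also fixed bases known for this element: GG at the start and CC at the end, pyrimidines in the rest of the 5′ side with a T before the loop, a loop of T, a pyrimidine, T and any base, and an A after the loop. It was found after the stop codon in 33 transcripts of 31 of the genes, in 6 versions, whereas 60 of 83064 protein coding transcripts of GENCODE 29 (0.072%) held it at any position. Since the search fixed many of the bases, how much the element varies cannot be read from the versions found. The 6 versions are given in tested members as DNA letters on the sense strand, with the stem-loop in capitals and 5 bases of the transcript on each side.
HIST1H2AC: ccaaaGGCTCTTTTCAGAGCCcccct
HIST1H2BC: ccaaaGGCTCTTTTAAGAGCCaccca
HIST1H3E: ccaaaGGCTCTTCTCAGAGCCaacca
HIST1H2AG: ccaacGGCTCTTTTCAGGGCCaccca
HIST1H4H: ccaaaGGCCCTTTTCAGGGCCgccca
HIST1H4I: aaaaaGGCCCTTTTTAGGGCCcctaa
The first version, that of HIST1H2AC, was the most frequent and stood in 17 genes. The version of HIST1H2BC was shared by 4 genes, that of HIST1H4H by 5 and that of HIST1H4I by 3, while those of HIST1H3E and HIST1H2AG stood in 1 gene each. The 8 H4 genes with a stem-loop all carried one of the 2 versions with CCC in the 5′ side of the stem, and no gene of another family did. The stem-loops printed lie at chr6:26124669-26124684 (HIST1H2AC, plus strand), chr6:26123472-26123487 (HIST1H2BC, minus), chr6:26225596-26225611 (HIST1H3E, plus), chr6:27133515-27133530 (HIST1H2AG, plus), chr6:26285131-26285146 (HIST1H4H, minus) and chr6:27139654-27139669 (HIST1H4I, plus), each in the annotated 3′ UTR.

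The annotated transcript ran well past the stem-loop for many of the genes that the libraries held. A gene was put in the class "extended" where an annotated transcript continued for more than 100 bases after the stem-loop, which was the case for 23 genes. In these 23 genes the mean estimated count per library ranged from 0.21 to 451 with a median of 10.1, and they held 71.1% of all counts of the 63 genes. In HIST1H2AC (an H2A gene) the annotation continued 1114 bases past the hairpin, in HIST2H2BE (H2B) 1729 bases, in HIST1H3E (H3) 1862 bases and in HIST1H4I (H4) 212 bases. A further 28 genes are annotated by their coding sequence alone, without any 3′ UTR. The median over these 28 was 0.365 counts per library, and 26 of them stayed below 2 counts; the other 2, HIST1H1C (an H1 gene, 196 counts) and HIST1H2BK (H2B, 100.02 counts), were among the most abundant members. Of the 7 genes whose longest model ends within 100 bases of the stem-loop, only the near-identical HIST2H2AA3 and HIST2H2AA4 reached 10 counts. The last 5 genes have a transcript with another 3′ end in which the search did not find the hairpin, and of these HIST1H2BD and HIST1H2BJ reached 10 counts. Here and below, a transcript is said to lack the hairpin where the searched pattern was not found after the stop codon. A hairpin that departs from that pattern would be missed. Counted by transcript instead of by gene, 54.2% of the counts were on extended transcripts, 25.2% on transcripts with another end, 16.8% on coding sequence alone and 3.8% on transcripts that end near the stem-loop. These counts are not per length. In TPM, which is per length, the median over the genes was 1.53 for the extended class against 0.169 for the genes annotated by coding sequence alone. As this follows from one annotation, it is a description of the models and not of the 3′ ends in these cells.

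**Figure D1:**
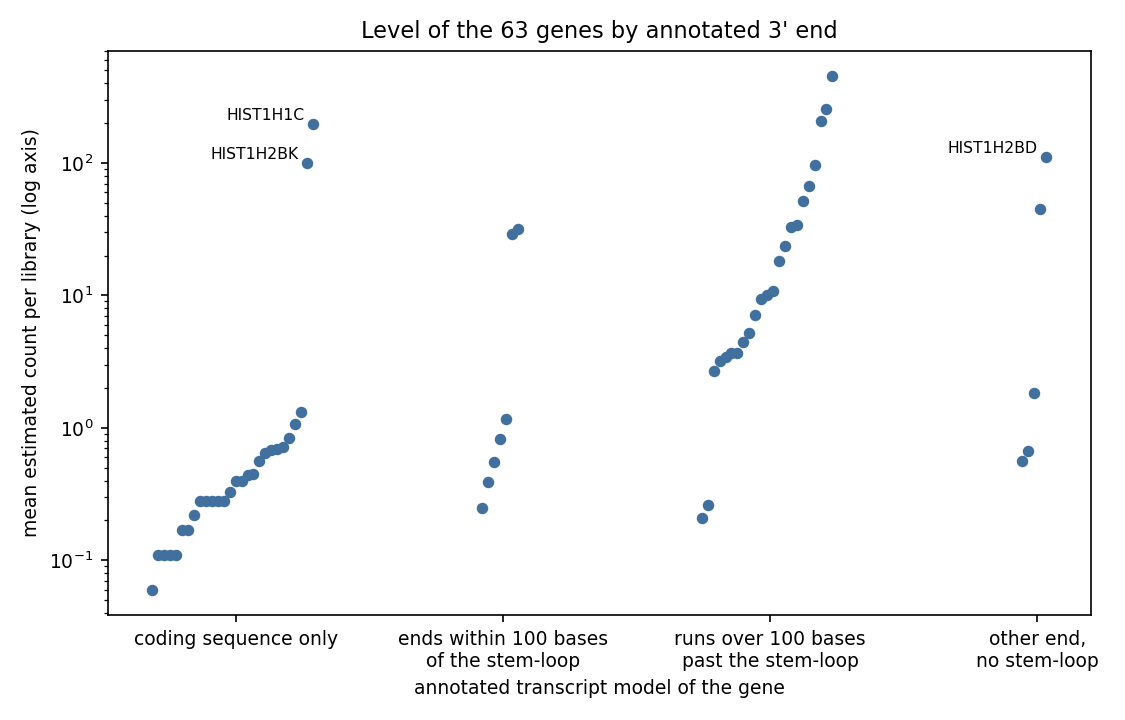
Mean estimated count per library over the 18 libraries (vertical log axis) for each of the 63 genes, 1 point per gene, grouped by the annotated transcript model. Genes annotated by their coding sequence alone lie below 2 counts except HIST1H1C and HIST1H2BK, and the class that runs past the stem-loop has a median of 10.1 counts.

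Where a gene had several protein coding transcripts, counts fell mostly on those without the hairpin or with bases beyond it. For HIST1H2BD, 99.5% of the counts were assigned to a spliced transcript of 2 exons (789 bases) that lacks the stem-loop, against 0.5% for the unspliced one of 496 bases that ends 39 bases after it. For HIST1H2BC the spliced transcript, which lacks it too, held 97.2%. For HIST1H2BN, 81.2% went to a spliced transcript of 4137 bases without the hairpin and 2.2% to a spliced one that ends 5 bases after a hairpin. That hairpin lies at chr6:27865778-27865793, past the annotated end of HIST1H2AL (27865747) on the same strand. The hairpin of the unspliced HIST1H2BN transcript lies elsewhere, at chr6:27839090-27839105. HIST1H2BE was an exception, with 39.3% of its 9.36 counts per library on a transcript that ends 1 base after the stem-loop. For HIST1H2AC, the member with the highest counts, an extended transcript of 1654 bases and one of 1462 bases without the hairpin took equal shares on average (50.2% and 49.8%), but the share of the extended one ranged from 12.3% to 63.6% between U87 mg libraries and from 2.19% to 81.7% between DAOY libraries. The lowest of these, 2.19%, was DAOY 0 h replicate 0, and the other DAOY libraries were at 38.7% or more. Assignment between transcripts that share exons is an estimate, so these shares are less certain than the sum for the gene.

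The libraries held 8341976 to 15610886 estimated counts each. The fragment length that the authors entered for the quantification can be read back from count, TPM and transcript length, and it was 137 to 162 bases in 17 libraries but 255 bases in DAOY 0 h replicate 0. In that library, transcripts of up to 500 bases were lower than in the other 2 DAOY 0 h libraries by a median of -0.61 (log2 ratio, 266 transcripts). The median was -0.15 for those over 500 and up to 700 bases (1275 transcripts) and -0.17 for those of 2000 to 4000 bases (7660 transcripts). The summed snoRNA level was 1.98 TPM there, where the other DAOY libraries had 132 TPM or more. Of the histone genes tested in DAOY, the 5 with no transcript over 700 bases had a median log2 ratio of -1.47 in that library against the other 2, and the 15 with longer transcripts -0.14. Of these 5, HIST1H2BK has 381 bases, but HIST2H2AA3, HIST2H2AA4, HIST1H1C and HIST1H2BC have 549, 564, 642 and 659 bases. Their lower values are thus not matched by the median of all transcripts over 500 and up to 700 bases. The part of this library in the results was not tested, and several histone results that rest on DAOY 0 h are followed by their values without it. The labelled cell types could be checked only in part: VIM (2112 TPM at the median in DAOY, 4516 TPM in U87 mg) and CD44 were high in both lines, the astroglial markers GFAP, S100B and AQP4 were at medians below 1 TPM in both, while SLC1A3 had 37.8 TPM in U87 mg and 8.65 TPM in DAOY and NES 7.62 and 0.505 TPM. SFRP1, a marker listed for medulloblastoma, was at 23.2 TPM in DAOY and 0.0268 TPM in U87 mg. GLI1, also listed for medulloblastoma, was at a median of 0 TPM in DAOY and 1.20 TPM in U87 mg, and BARHL1 was at a median of 0 TPM in both.

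Together the 63 genes made up a small part of each library. Their summed level was 124 to 250.3 TPM in the 9 U87 mg libraries and 346 to 630.2 TPM in the 9 DAOY libraries, which do not overlap. At 0 h it was 124, 220.1 and 250.3 TPM in U87 mg and 346, 630.2 and 585 TPM in DAOY, the lowest DAOY value being that of replicate 0. After 2 h it was 130, 164 and 200.4 TPM in U87 mg and 575, 574 and 409 TPM in DAOY. After 8 h the values were 141, 191 and 182 TPM in U87 mg and 542, 389 and 444 TPM in DAOY. Within a line, the 3 times overlap. Other RNA types were read in the same way. Transcripts typed snRNA summed to 50.5 to 338 TPM in U87 mg and 0 to 165 TPM in DAOY, snoRNA to 230.3 to 338 and 1.98 to 291 TPM, scaRNA to 0 to 25.5 and 1.21 to 44.7 TPM, and misc_RNA to 213 to 298 and 188 to 307 TPM. The ranges of the lines overlap in each of these RNA types, but some medians differed. In DAOY and U87 mg they were 62.7 and 204 TPM for snRNA and 218 and 286 TPM for snoRNA. For scaRNA they were 6.705 and 13.58 TPM and for misc_RNA 272 and 265 TPM. The lowest DAOY values of snRNA and snoRNA were those of 0 h replicate 0. How far RNA without a tail was carried into the libraries was not tested.

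Few members carried most of this level. By mean TPM over the 18 libraries, a scale per length that allows genes to be compared, HIST1H2BK came first with 64.5 TPM, and its median was 33.4 TPM in U87 mg and 99.2 TPM in DAOY. HIST1H1C, encoding the linker histone H1.2, had medians of 20.1 and 102 TPM, so that it was above HIST1H2BK in DAOY, HIST1H2AC 21.4 and 69.3 TPM, HIST1H4I 20.6 and 46.3 TPM, and HIST1H2BD 10.5 and 40.5 TPM. The ranges of neighbours in this order overlap: in DAOY, HIST1H2BK ran from 43.2 to 147 TPM, HIST1H1C from 41.4 to 138 TPM and HIST1H2AC from 54.2 to 102 TPM. These 5 genes held 55.9% to 62.3% of the members' TPM in the U87 mg libraries and 67.2% to 77.1% in the DAOY libraries. HIST1H2BC, HIST2H2BE and HIST1H2BJ, all H2B genes, followed in this mean over both lines, with medians of 5.00 to 6.68 TPM in U87 mg and 13.4 to 24.0 TPM in DAOY. The order differed in U87 mg, where the medians of HIST2H2AA4 (13.1 TPM), HIST2H2AA3 (12.4 TPM) and HIST2H2BF (8.66 TPM) were above these and the first 2 also above HIST1H2BD. By family, H2B summed to a median of 75.3 TPM in U87 mg and 232 TPM in DAOY and H3 to 4.93 and 11.4 TPM. H2A summed to a median of 51.5 and 98.8 TPM, H4 to 25.1 and 60.2 TPM and H1 to 20.8 and 102 TPM. At the other end, 32 members had a mean of at most 1 count per library, and 16 to 34 members had no count at all in a given library. A count of 0 in a library of this depth is a statement on poly-A selected RNA only.

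Members often lie head to head, with starts within 1000 bases in 12 pairs, and the 5 pairs with a gene above 3 TPM differed in level between partners. HIST1H2BK and HIST1H2AH start 331 bases apart, and had a mean of 64.5 and 0.107 TPM over the 18 libraries. HIST2H2BE and HIST2H2AC, 323 bases apart, had 15.4 and 0.698 TPM, and HIST1H2BJ and HIST1H2AG, 292 bases apart, had 11.8 and 1.67 TPM. In HIST1H2BC and HIST1H2AC, 219 bases apart, both partners were measurable with 15.6 and 48.8 TPM, and HIST3H2A and HIST3H2BB, 234 bases apart, had 3.60 and 0.225 TPM. In the other 7 pairs no gene was above 1.94 TPM, and some partners were close, such as HIST1H2BG and HIST1H2AE with 0.438 and 0.423 TPM. Annotated genes on the opposite strand overlap 11 of the members, among them HIST1H2BD, HIST2H2BF, HIST1H2BN and HIST1H2BE of those tested, and since it is not stated whether strand was used in the quantification, their counts are less certain.

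Members also share sequence. The share of a transcript's 31-base words that occur in no other gene of GENCODE 29 was 87.2% at the median over 30 transcripts of tested members. It was 98.2% and 97.9% for the transcripts of HIST1H2AC, 99.2% for HIST1H1C, 95.3% for HIST1H4I and 94.3% for HIST1H3E, but 13.7% for HIST1H2BK, whose counts are less certain for that reason. It was 0% for HIST2H2AA3 and 2.8% for HIST2H2AA4, an H2A pair on chromosome 1, whose models have 549 and 564 bases. Their counts changed from one gene to the other between libraries: HIST2H2AA3 took over 99% of the pair's counts in 8 of 18 libraries, HIST2H2AA4 in 7, and neither did in 3. In U87 mg at 0 h, HIST2H2AA3 had 0, 109 and 71.3 counts and HIST2H2AA4 38, 0 and 85 counts in replicates 0, 1 and 2. The sum of the pair was steadier, with 38 to 156 counts in U87 mg and 13.4 to 82 in DAOY, the lowest in DAOY 0 h replicate 0. HIST2H3A and HIST2H3C, which encode the same H3 protein, were given equal counts in all 18 libraries, and HIST2H4A and HIST2H4B together had at most 12.7 counts. The single genes of these pairs are not interpreted further.

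**Figure D2:**
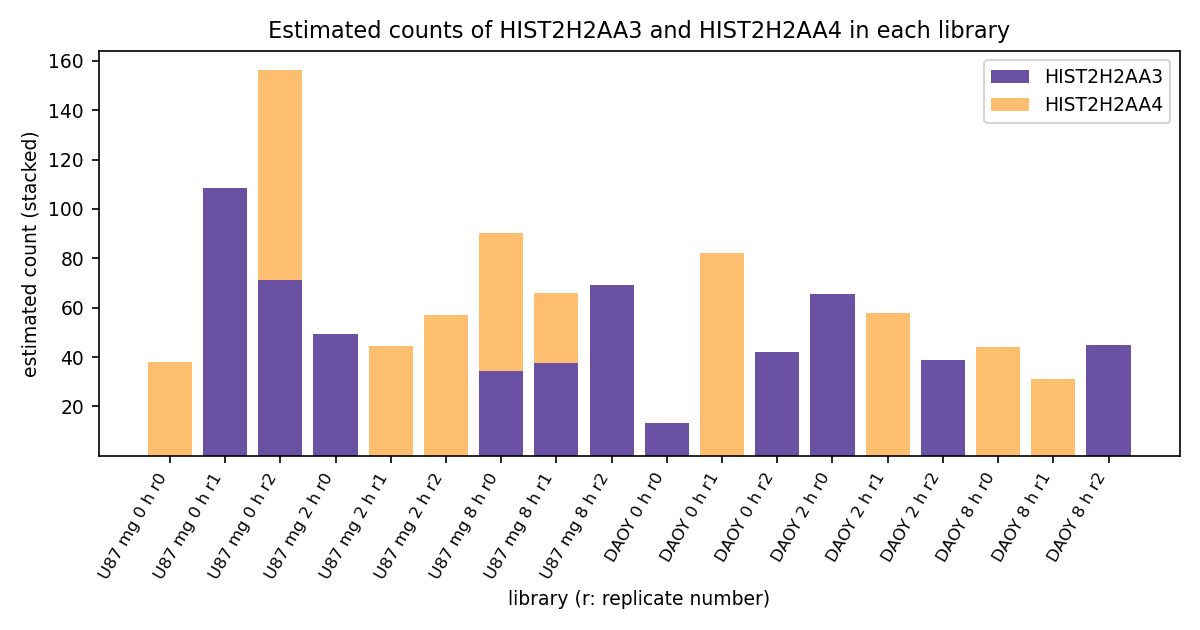
Estimated counts of HIST2H2AA3 and HIST2H2AA4 stacked in each of the 18 libraries (vertical axis, counts from 0). In 15 libraries over 99% of the pair's counts were given to 1 gene, and in 3 U87 mg libraries both genes hold a visible part.

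A low-count filter over all 18 libraries left 21 of the 63 genes for the comparison of lines, and 42 genes, with means of up to 4.45 counts, were not tested. Of the 21, 15 belong to the extended class (of 23), 2 are annotated by coding sequence alone (of 28), 2 end near the stem-loop (of 7) and 2 have another 3′ end (of 5). The filter was passed in each line alone by 16 genes, through DAOY only by HIST1H2BE, HIST1H2BH, HIST1H3H and HIST1H4E, and through U87 mg only by HIST1H3G. Those 5 had to be higher in the line that let them pass.

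**Figure D3:**
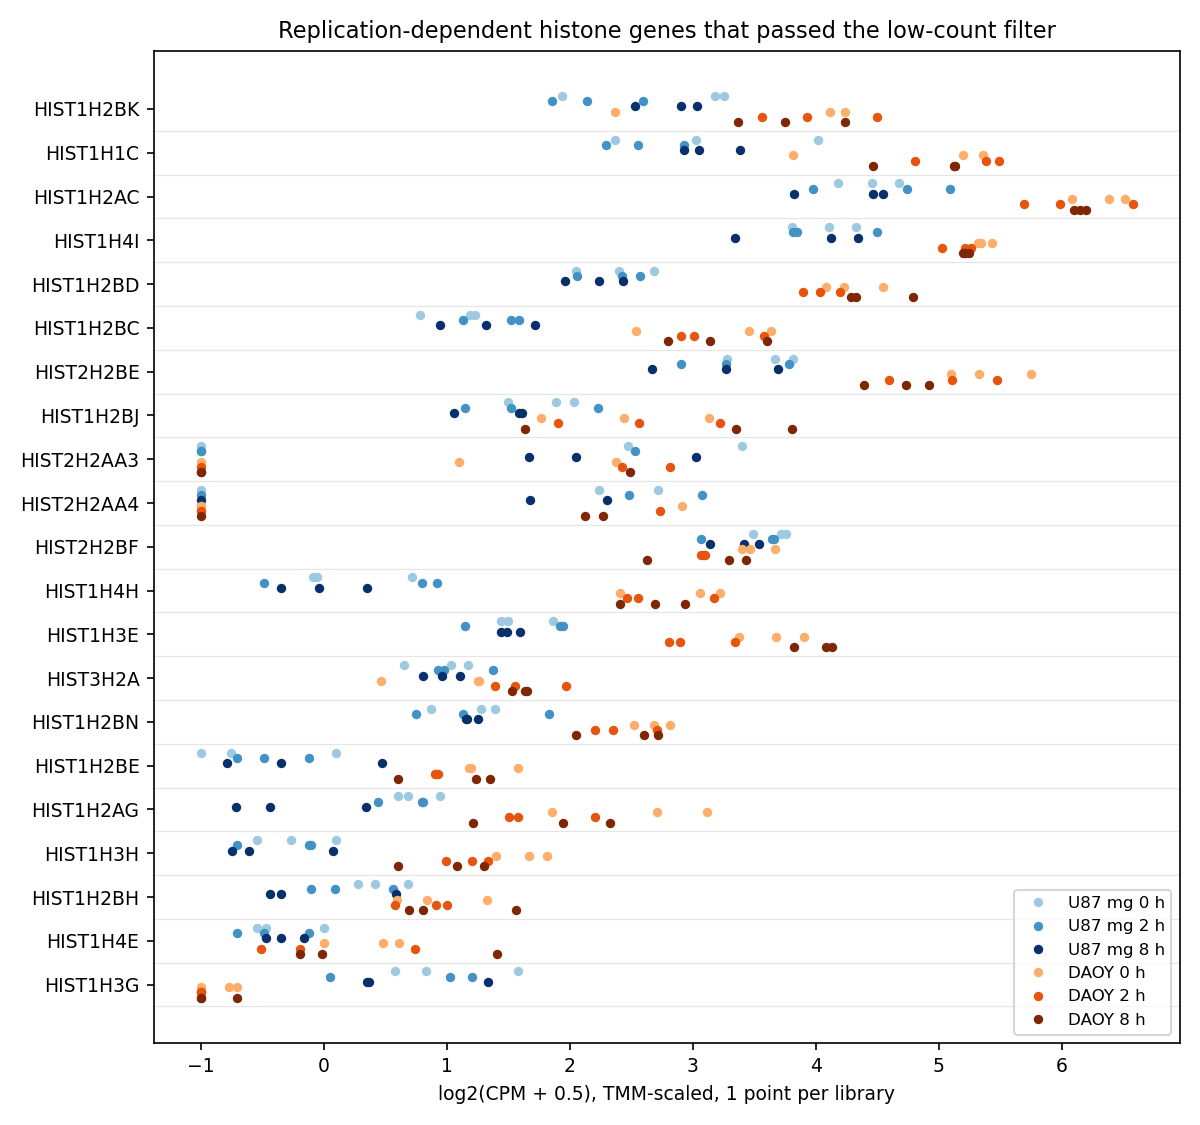
Level of the 21 tested genes in each library as log2(CPM + 0.5), TMM-scaled, with 1 point per library and a color for each line and time, ordered by mean TPM. In 11 genes each of the 9 DAOY libraries lies above each of the 9 U87 mg libraries, and HIST1H3G shows the opposite. Of these genes, HIST1H2BE and HIST1H3H passed the filter through DAOY only and HIST1H3G through U87 mg only.

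The lines were compared without a field. DAOY exceeded U87 mg in 12 of the 21 tested genes and was lower in 1, by edgeR's quasi-likelihood test at an adjusted p below 0.05 and at least 2-fold, whereas over all 16113 names tested 40.6% were called, 23.1% as higher and 17.5% as lower in DAOY. Among the 16 genes that passed the filter in each line, 10 were higher and 0 lower in DAOY by edgeR, and over all 12763 names that did so 14.2% were higher. With HIST2H2AA3 and HIST2H2AA4 taken singly, 0 of the 16 were lower at an unadjusted edgeR p below 0.05 and 0 were called lower by DESeq2. The median log2 fold change of these 16 genes was 1.69, against -0.07 for those 12763 names. Over the 21 genes it was 1.68, against 0.05 for all names tested. Every DAOY library, at any time, lay above every U87 mg library in 11 of the 21 genes, and this held for 21.7% of all names. The 11 genes include HIST1H2BE and HIST1H3H, which passed the filter through DAOY only and give no independent support. The share of all names was likewise not limited to names that passed in each line. No test was made over the list, since its genes are not independent replicates.

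The genes higher in DAOY came from all 5 families. HIST1H2AC had 21.5, 17.7 and 25.0 CPM (counts scaled to the library total with TMM) in U87 mg at 0 h and 67.5, 83.0 and 91.0 CPM in DAOY, without overlap, a log2 fold change of 1.91 ± 0.28 (SE; adjusted p = 1.72e-05, edgeR). HIST1H2BD was at 3.66, 5.92 and 4.78 CPM in U87 mg and 18.3, 22.9 and 16.4 CPM in DAOY, with a log2 fold change of 2.00 ± 0.24. For HIST2H2BE, 9.20, 12.2 and 13.6 CPM in U87 mg stood against 39.6, 33.8 and 53.3 CPM in DAOY (1.85 ± 0.31). In each of these 3 genes the lowest DAOY library was above the highest U87 mg library. HIST1H3E, the leading H3 gene, had 2.33, 3.14 and 2.21 CPM in U87 mg and 14.5, 9.89 and 12.3 CPM in DAOY (2.25 ± 0.28). HIST1H4H, an H4 gene, had the highest fold of the 12, with 0.443, 0.462 and 1.14 CPM in U87 mg and 7.82, 4.82 and 8.83 CPM in DAOY (3.31 ± 0.51). Its protein coding transcript was given the same count as a transcript typed nonsense-mediated decay in 18 of 18 libraries (within 0.01 counts), so its level is that of an equal split between both. HIST1H4I, the most abundant H4 gene, differed less, with 13.5, 16.7 and 19.6 CPM in U87 mg against 39.4, 42.8 and 40.2 CPM in DAOY (1.29 ± 0.24). The DAOY libraries at 0 h spread by only 1.76 CPM (SD, n = 3) in this gene.

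The linker histone gene HIST1H1C had 4.66, 7.67 and 15.7 CPM in U87 mg and 13.6, 36.3 and 40.7 CPM in DAOY, so that DAOY replicate 0 fell within the U87 mg range. Its log2 fold change was 1.68 ± 0.41 (edgeR adjusted p = 0.0021) and rose to 2.02 ± 0.37 without that library. Likewise HIST1H2BK had 3.33, 8.60 and 9.06 CPM in U87 mg and 4.67, 18.4 and 16.9 CPM in DAOY. It was not called with all libraries (0.92 ± 0.45, edgeR adjusted p = 0.0881) but was without DAOY 0 h replicate 0 (1.32 ± 0.38, adjusted p = 0.00835). Both genes are annotated by their coding sequence alone, 642 and 381 bases long. The other genes higher in DAOY were HIST1H2BC (1.22 to 1.85 CPM in U87 mg, 5.30 to 12.0 CPM in DAOY), HIST1H2BN (log2 fold change 1.70 ± 0.34), HIST1H2AG (2.27 ± 0.49), HIST1H3H (2.77 ± 0.54) and HIST1H2BE (2.96 ± 0.74), of which the last 2 passed the filter through DAOY only. The fitted value of HIST1H2BE was 5.01 without U87 mg 0 h replicate 2. Without DAOY 0 h replicate 0 the same 12 genes were called as higher, with log2 fold changes from 1.32 (HIST1H4I) to 3.24 (HIST1H4H).

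HIST1H3G, an H3 gene, went the other way. It had 9 to 27 counts in U87 mg at 0 h and 0, 1 and 1 counts in DAOY, 54 against 2 in sum, a ratio of 21.04 per sequenced count with an exact 95% interval of 5.55 to 178 that covers counting error only. It passed the filter through U87 mg only, so its call as lower in DAOY is no independent support, and its fitted log2 fold change of -4.28 ± 0.87 depends on the prior count of the fit. Over all times the 9 U87 mg libraries held 124 counts and the 9 DAOY libraries 3. HIST1H2BG, an H2B gene that did not pass the filter, had 73 counts in U87 mg and 7 in DAOY over all times (ratio 8.77, interval 4.05 to 22.6). Both models are extended, by 1518 and 1059 bases. HIST2H2BF (H2B), extended by 1479 bases and past the filter in each line, did not separate the lines. It had 13.1, 10.7 and 12.7 CPM in U87 mg and 12.2, 10.6 and 10.1 CPM in DAOY (log2 fold change -0.15 ± 0.24, edgeR adjusted p = 0.606). HIST3H2A had a log2 fold change of 0.12 ± 0.36, and 0.38 ± 0.36 without DAOY 0 h replicate 0. For the HIST2H2AA3 and HIST2H2AA4 pair summed, a step added after the counts were seen, DAOY was lower by -0.91 ± 0.41, which did not pass (edgeR unadjusted p = 0.0394, adjusted p = 0.0658). The pair was lowest in DAOY 0 h replicate 0 (13.4 counts), and the sum was not fitted without that library.

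**Figure D4:**
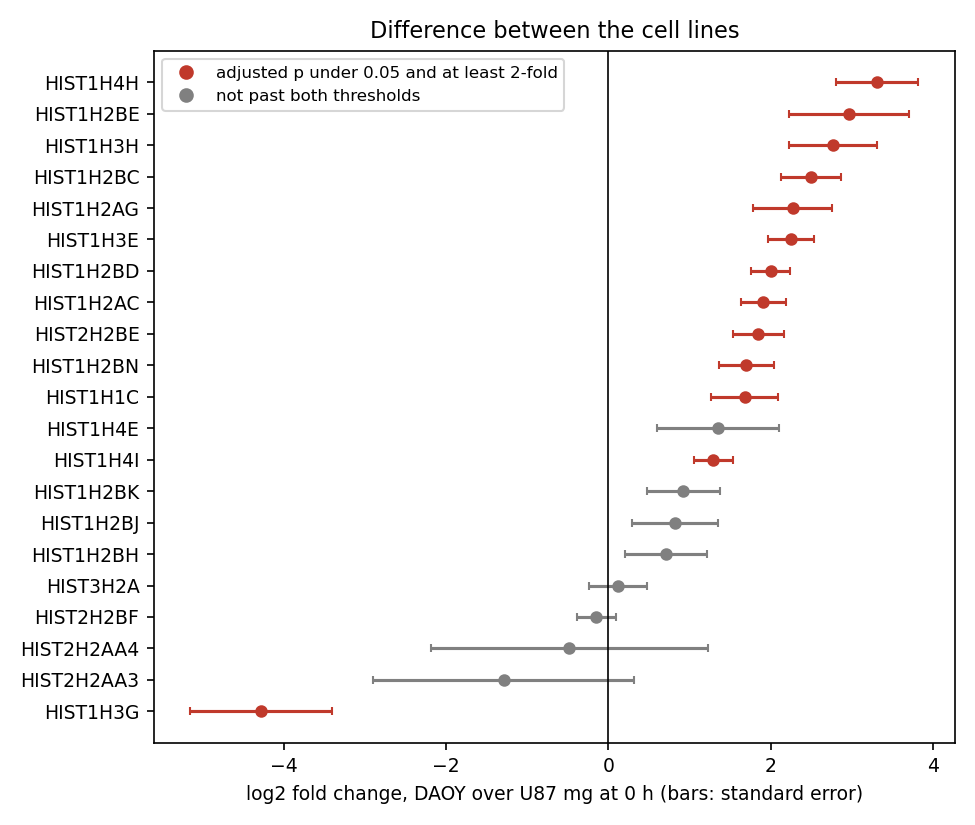
Log2 fold change of DAOY over U87 mg at 0 h for the 21 tested genes (horizontal axis, bars are the standard error from edgeR), in red where the adjusted p was below 0.05 and the fold at least 2. The 12 red points on the right range from 1.29 to 3.31 and HIST1H3G lies at -4.28.

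The electrical field was compared with 0 h within each line, and no histone gene passed the thresholds in any of these comparisons. In U87 mg, 17 members were tested among 13741 names. After 2 h edgeR called 0 of them and 0% of all names, with 0 by DESeq2 and 0 at an unadjusted p below 0.05 (7.71% of all names). After 8 h it called 0 beside 0.458% of all names, with 0 by DESeq2 and 1 at an unadjusted p below 0.05 (14.7% of all names). In DAOY, 20 members were tested among 15007 names. After 2 h edgeR called 0 of them and 0% of all names, with 0 by DESeq2 and 1 at an unadjusted p below 0.05 (2.77% of all names). For 8 h the count was 0 beside 2.41% of all names, with 0 by DESeq2 and 1 at an unadjusted p below 0.05, where 20.97% of all names were. At these background shares a list of 17 or 20 genes would hold few calls or none. The median log2 fold changes of the tested members were -0.04 after 2 h and -0.16 after 8 h in U87 mg and -0.21 and -0.10 in DAOY, where the medians over all names lay between -0.02 and 0.00. Without DAOY 0 h replicate 0 the DAOY medians were -0.31 and -0.30, with 0 members called at either time. All values share the 0 h samples of their line.

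The precision differed between members. In U87 mg at 8 h the standard errors ran from 0.22 to 1.30 with a median of 0.38, and in DAOY at 8 h from 0.15 to 1.79 with a median of 0.38. In DAOY the most precise member was HIST1H4I, which had 39.4, 42.8 and 40.2 CPM at 0 h, 36.6, 32.2 and 37.8 CPM at 2 h and 36.6, 37.5 and 36.2 CPM at 8 h. Its log2 fold change was -0.17 at 2 h and -0.13 at 8 h in DAOY, and -0.01 and -0.08 in U87 mg. HIST1H2AC was at 62.97, 95.3 and 51.2 CPM after 2 h and 70.4, 68.1 and 72.8 CPM after 8 h in DAOY, which overlaps its 0 h range of 67.5 to 91.0 CPM. HIST1H1C was at 41.3, 44.5 and 27.6 CPM after 2 h and 34.6, 21.6 and 34.4 CPM after 8 h in DAOY. Against the 0 h values of 36.3 and 40.7 CPM that remain without replicate 0, its log2 fold change was -0.01 ± 0.26 at 2 h and -0.35 ± 0.26 at 8 h, and with it 0.35 and 0.01.

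**Figure D5:**
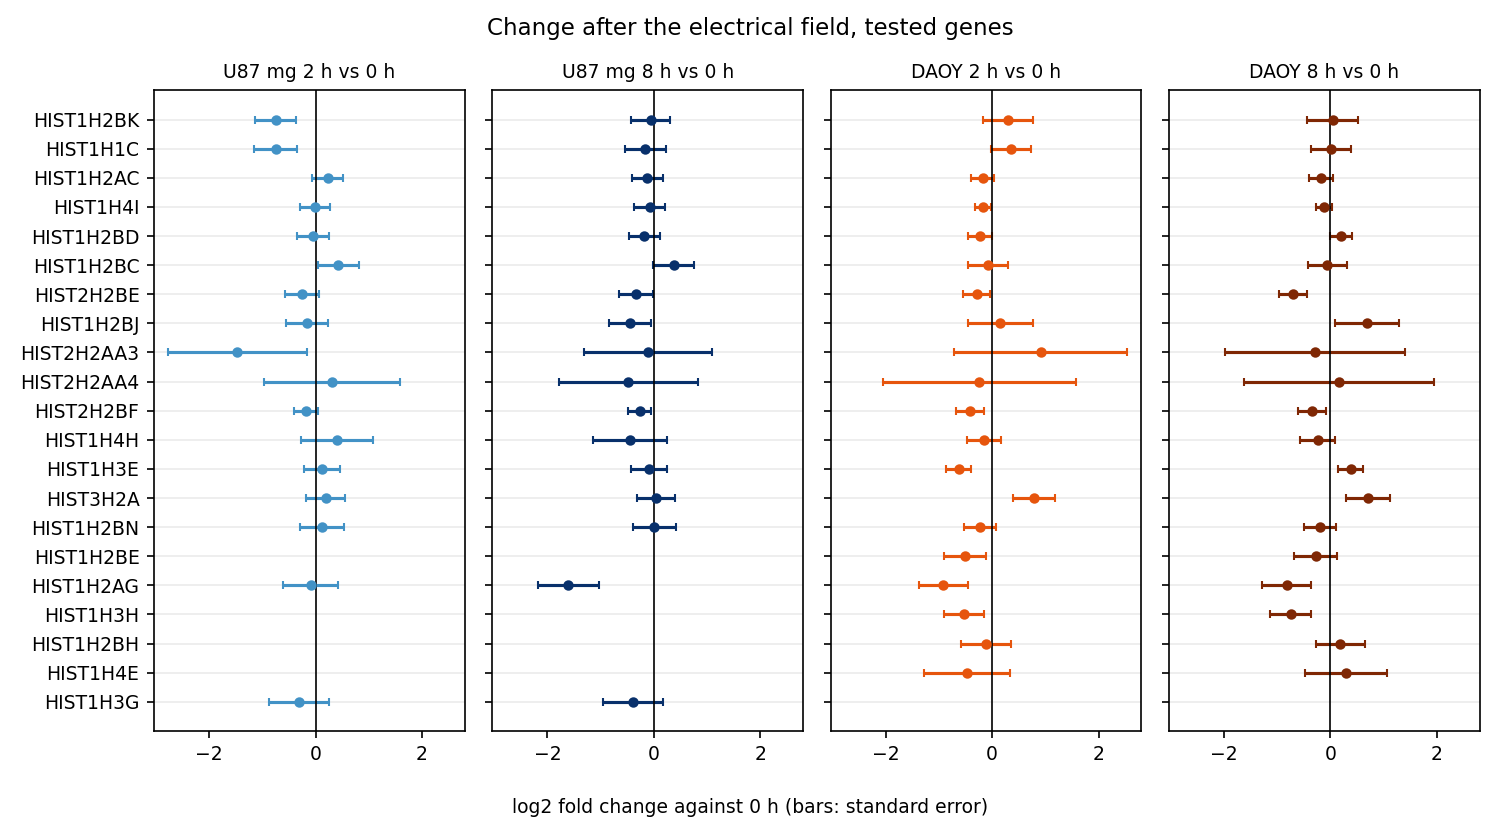
Log2 fold change against 0 h with its standard error (horizontal bars) for the tested histone genes in U87 mg (2 panels on the left) and DAOY (2 panels on the right), from edgeR. No gene passed the thresholds, and the widest bars belong to HIST2H2AA3 and HIST2H2AA4, whose counts changed from one gene to the other between libraries.

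The members with the smallest p in each comparison are given as values, since none was called. In U87 mg at 2 h these were HIST1H2BK (-0.75 ± 0.39), HIST1H1C (-0.75 ± 0.40) and HIST2H2AA3 (-1.47 ± 1.30), with a smallest edgeR adjusted p of 0.554. The value of HIST1H1C was -0.14 without U87 mg 0 h replicate 2, and that of HIST2H2AA3 was -8.71 without U87 mg 2 h replicate 0 and -0.54 without U87 mg 0 h replicate 1. In U87 mg at 8 h, HIST1H2AG had 0.237, 0.769 and 0.111 CPM against 1.11, 1.02 and 1.43 CPM at 0 h, which do not overlap, with a log2 fold change of -1.61 ± 0.57 (edgeR adjusted p = 0.218). HIST1H2AG was also at 4.12, 2.34 and 2.497 CPM after 2 h and 4.51, 3.36 and 1.82 CPM after 8 h in DAOY, against 6.06, 8.17 and 3.13 CPM at 0 h (log2 fold changes -0.92 ± 0.46 and -0.82 ± 0.46). In DAOY, HIST1H3E had 6.94, 9.67 and 6.49 CPM after 2 h, below its 3 values at 0 h, and 16.5, 13.7 and 17.0 CPM after 8 h, with log2 fold changes of -0.63 ± 0.24 (edgeR adjusted p = 1) and 0.38 ± 0.24. HIST2H2BE was at 29.8, 20.5 and 26.1 CPM after 8 h in DAOY, below each 0 h value, with -0.71 ± 0.26 (edgeR adjusted p = 0.152), and at -0.33 in U87 mg. HIST1H3H had -0.75 ± 0.38 after 8 h in DAOY. HIST3H2A had 0.79 ± 0.40 after 2 h and 0.70 ± 0.41 after 8 h in DAOY, and 0.51 ± 0.38 and 0.42 ± 0.38 without DAOY 0 h replicate 0, its lowest library at 0 h (0.883 CPM). Without that library the DAOY values of the others were -0.90 and -0.81 for HIST1H2AG, -0.51 and 0.50 for HIST1H3E, -0.77 after 8 h for HIST2H2BE and -0.88 after 8 h for HIST1H3H, and 0 genes were called.

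Whether the 8 h change differed between the lines was tested as an interaction over all 18 libraries. None of 21 members passed (edgeR; 0 at an unadjusted p below 0.05 and 0 by DESeq2), where 0.0186% of all 16113 names did. The smallest p was that of HIST1H2BJ (difference of log2 fold changes 1.15 ± 0.75, edgeR adjusted p = 0.781), which had 13.5, 9.69 and 2.61 CPM after 8 h in DAOY. The median difference was 0.12 with all libraries and -0.03 without DAOY 0 h replicate 0.

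Genes that act with the histone genes were read from 5 lists. The list of 12 replication-independent histone genes holds genes that are mostly not confined to S phase and mostly have ordinary poly-A tails. Of these, 10 were tested within each line, and edgeR called 1, CENPA, the histone H3 variant of the centromere. It rose after 8 h in DAOY from 2.52, 2.92 and 3.69 CPM to 19.6, 18.4 and 5.80 CPM (log2 fold change 2.28 ± 0.54, edgeR adjusted p = 0.0471). DESeq2 called CENPA there as well (adjusted p = 0.00116). The edgeR call held in only 1 of the 9 fits that left out a library, the one without DAOY 2 h replicate 0 (adjusted p = 0.042), and in the other 8 the edgeR adjusted p was 0.0599 to 0.156. Of 18 genes of histone gene transcription, 3′ end processing and mRNA decay, 18 were tested and 1 rose by edgeR and by DESeq2, SRRT, which encodes ARS2, a factor bound to the cap-binding complex: after 8 h in DAOY it was at 196, 193 and 145 CPM against 42.8, 95.7 and 73.1 CPM (1.35 ± 0.28, edgeR adjusted p = 0.0322). This call was lost without DAOY 0 h replicate 2, either of DAOY 2 h replicates 1 and 2, or any DAOY 8 h replicate, with an adjusted p of up to 0.116. CPSF3, of the same list, was lower after 8 h in DAOY (-0.90 ± 0.16, edgeR adjusted p = 0.0237) but did not reach the 2-fold threshold. It had 177, 114 and 130 CPM at 0 h and 72.6, 79.2 and 69.65 CPM after 8 h there. SLBP itself had 127, 92.7 and 95.7 CPM at 0 h and 99.1, 105 and 85.8 CPM after 8 h in DAOY, and 107, 86.4 and 84.5 CPM and 82.2, 93.4 and 93.4 CPM in U87 mg.

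Of 20 histone chaperones and carriers, all tested, 0 were called for the field in either line at either time by edgeR or DESeq2, with 1 to 3 at an unadjusted p below 0.05 in each comparison. Of 29 G1/S and DNA replication genes, all tested, edgeR called 1: CCNE2, encoding cyclin E2 of the G1/S transition, fell after 8 h in U87 mg from 32.03, 22.4 and 25.1 CPM to 9.49, 13.1 and 9.10 CPM (-1.29 ± 0.21, edgeR adjusted p = 0.0261). DESeq2 called CCNE2 there as well (adjusted p = 1.5e-05). The edgeR call held without U87 mg 0 h replicate 0 or 8 h replicate 1 and was lost without any of the other 7 libraries, with an adjusted p of up to 0.164. In DAOY after 8 h CCNE2 had -1.39 ± 0.42 and did not pass with edgeR (adjusted p = 0.0975) but did with DESeq2 (adjusted p = 0.0203), as did PRIM1, a subunit of primase (edgeR -1.28 ± 0.39, adjusted p = 0.101, DESeq2 adjusted p = 0.0248). There the median of the 29 was -0.42 against -0.01 for all names, with 0 called by edgeR, 2 by DESeq2 and 4 at an unadjusted p below 0.05. Of 8 cell cycle inhibitors and exit genes, 7 could be tested in DAOY and 5 in U87 mg, and 0 were called by edgeR or DESeq2, with at most 1 at an unadjusted p below 0.05. Among values that edgeR did not call, CCNG2 had 0.84 ± 0.28 in DAOY and 0.82 ± 0.24 in U87 mg after 8 h, and H1F0, the replication-independent linker histone, -1.13 ± 0.31 in U87 mg after 8 h (edgeR adjusted p = 0.123), which DESeq2 called (adjusted p = 0.0147).

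Between the lines at 0 h, these lists were split in direction, and their counts stand beside the 23.1% of all names called as higher and 17.5% as lower in DAOY. Of the 18 genes of histone gene transcription and processing, 2 were higher and 2 lower in DAOY. The higher ones included NPAT, the coactivator of histone gene transcription, with 95.5, 61.3 and 56.6 CPM in DAOY and 25.5, 17.9 and 17.98 CPM in U87 mg (1.80 ± 0.20), and the lower ones LSM10, a subunit of the U7 snRNP (-1.16 ± 0.33). SLBP was not called between the lines. Of 20 chaperones, 3 were higher, among them SUPT16H of the FACT complex (2.26 ± 0.15) and NASP, a carrier of H3 and H4 (1.03 ± 0.20), and 1 was lower. Of 11 replication-independent histone genes tested 2 were higher, including H3F3A, encoding H3.3 (1.36 ± 0.12), and 1 lower. Of 29 G1/S and replication genes 2 were higher, including PCNA (1.13 ± 0.28), and 3 lower, including E2F1 (-2.23 ± 0.41), with a list median of -0.12. Of 7 cell cycle inhibitors tested 2 were higher and 2 lower.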

How the data were processed

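Per the labels, RNA was selected by poly-A pull-down with a stranded kit. The authors chose the 3 biological replicates of each condition with the best RNA quality, sequenced single-end reads, trimmed them (FASTQC Toolkit 2.0.0) and quantified GENCODE 24 transcripts with kallisto 0.43.0, giving the mean fragment length of each sample; the strand setting is not given in the sources used here. The deposited values are, for each transcript in each sample, the estimated count and the TPM. The columns of the authors' own Sleuth comparisons (p-values, q-values and log2 fold changes) were not used. The samples are described as biological replicates, without saying whether they came from separate cultures, so p-values measure the spread between these samples.

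Estimated counts were summed by gene name over protein coding transcripts (all transcripts where a name has none), rounded, filtered with filterByExpr, scaled by TMM and tested with glmQLFit and glmQLFTest (edgeR 4.0.16, R 4.3.3), within each line's 9 samples for the field and over all 18 for line and interaction. Names were called where the Benjamini-Hochberg adjusted p was below 0.05 and the change at least 2-fold. Standard errors are the log2 fold change divided by the root of F. TPM was used for levels between genes. Alternatives were DESeq2 1.42.0, RLE, no filter, limma 3.58.1 on log2(TPM + 1) and log2(TPM + 0.1), all transcript types, the replicate number as a block, each replicate left out, FDR alone and, added after seeing the data, identical copies summed. In data simulated for 8 h against 0 h, 200 genes with a mean above 1 CPM were changed by 2 on the log2 scale, which is more than the 2-fold threshold. Of these, 90.0% were called in U87 mg (13741 names) and 66.0% in DAOY (15007 names). These shares do not cover smaller changes or tested members below 1 CPM, such as HIST1H4H in U87 mg. Transcript models and stem-loops came from GENCODE 29 on GRCh38; the lengths implied by count, TPM and fragment length differed from it by at most 0.09 bases. Genes were named if called, among the 25 highest by TPM, among the 3 with the smallest p in a comparison, or, from 5 lists, if called or among the 4 with the smallest p; for the lists a selection of these is given. HIST1H2BG, HIST1H2AH, SLBP and the genes of head-to-head pairs were added after their values were seen. Members and lists were chosen with earlier results of these data known. Python 3.11.15, pandas 2.3.3, numpy 2.4.6 and scipy 1.17.1 were used.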

Additional observations from a re-analysis of the deposited data

How the results depend on the processing

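With 0 of the tested histone genes called for the field, no alternative changed that count except in U87 mg at 2 h without the low-count filter, where 1 gene was called, HIST2H2AA3 (log2 fold change -1.49, adjusted p = 0.0399), whose counts cannot be told apart from those of HIST2H2AA4; leaving out a replicate called 0 genes in each field comparison and in the interaction. The number called between the lines was 13 with DESeq2, RLE, limma on log2(TPM + 1), the block and identical copies summed, 14 with no filter, all transcript types or limma on log2(TPM + 0.1), and 13 to 15 without a replicate. The 13 genes were shared with every alternative except that HIST1H3G was lost with limma on log2(TPM + 1) (-0.89). Without a replicate the median of the members lay between -0.31 and 0.10 (U87 mg, 2 h), -0.40 and -0.07 (U87 mg, 8 h), -0.43 and -0.13 (DAOY, 2 h) and -0.30 and 0.02 (DAOY, 8 h), so the sign of 2 of these medians is not settled. Whether the replicate numbers pair the samples is not settled. Correlations of deviations between samples of the same number were -0.158 to 0.223 (median 0.105) in U87 mg and -0.17 to 0.387 (median 0.032) in DAOY. Between samples of different numbers they were -0.175 to 0.232 (median -0.018) and -0.219 to 0.362 (median -0.132). With the replicate block 0 members were called for the field and 13 between the lines. The calls of CCNE2, SRRT and CENPA held with DESeq2 but were lost under both limma fits and the block, and that of CENPA also with all transcript types (1.08). Low counts limit most members: 42 of 63 could not be tested.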

Other observations

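Transcripts of the same gene names that are typed nonsense-mediated decay, and so stand outside the sums above, also held counts. For HIST1H4H, one such transcript had a median of 17.7 counts in U87 mg (3.58 to 29.3) and 86.98 in DAOY (53.6 to 119), which do not overlap. Another was given the same counts as the protein coding transcript in 18 of 18 libraries, so it adds no value of its own. For HIST1H2AC, one such transcript had a median of 0.000817 counts in U87 mg and 0.00648 in DAOY. It held up to 109 counts in a U87 mg library and up to 186 in a DAOY library, which stand outside the sum of that gene. For HIST2H4B, whose protein coding transcript had a mean of 2.71 counts, one such transcript had 77.4 counts at the median in U87 mg (17.4 to 132) and 35.9 in DAOY (5.84 to 74.0), which overlap. HIST2H4A, its near-identical copy, was called between the lines when all transcript types were summed and in no other alternative run.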
